A study of Mus musculus with 18 samples.

Results

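The genes described here encode the nuclear subunits of the mitochondrial machinery for oxidative phosphorylation, with a group of assembly factors of complex I. They were chosen by symbol from the protein-coding genes of a RefSeq table on GRCm38.p6, the assembly of mm10, as those whose names start with Nduf, Uqcr, Atp5 or Cox4 to Cox8, together with Sdha, Sdhb, Sdhc and Sdhd. The rule found 96 genes among 21631 protein-coding genes on chromosomes 1 to 19 and X. By name, 41 belonged to complex I, 8 to the Ndufaf group of complex I assembly factors, 4 to complex II, 8 to complex III, 18 to complex IV and 17 to complex V. The rule used no measured value. It also takes in isoforms restricted to particular tissues, and it places Ndufa4 with complex I, although its protein is now regarded as a subunit of complex IV.

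Complex I (NADH dehydrogenase) and complex II (succinate dehydrogenase) pass electrons to ubiquinone, complex III passes them on to cytochrome c, and complex IV (cytochrome c oxidase) hands them to oxygen. Complex V (ATP synthase) uses the proton gradient built on the way to make ATP. H3K79me2, dimethylation of lysine 79 of histone H3, is set by the methyltransferase DOT1L and forms broad domains over transcribed genes that begin close to the transcription start and reach into the gene body. Naive T cells depend largely on mitochondrial oxidation, and activated T cells take up glycolysis while they enlarge their mitochondria.

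The mark was profiled by ChIP-seq, sequencing of immunoprecipitated chromatin, in CD4+ T cells of mice, all with the genotype label WT, in 3 libraries each of naive, Th1 and Th2 cells. Naive cells (CD44- CD62L+) were sorted directly from spleens of WT mice. Th1 cells were enriched CD4+ T cells kept for 4 days on plate-bound antibodies (anti-CD3, anti-CD28) in the presence of anti-IL-4, IL-12 and IL-2, and were then sorted by YFP from an IFNg-YFP reporter mouse. Th2 cells were kept for the same 4 days on the same antibodies in the presence of anti-IFNg, IL-4 and IL-2, and were sorted by the IL-4 AmCyan or IL-13 dsRed reporter of the 4C13R mouse. Between naive and polarised cells the culture, the reporter strain and the cell type all changed at once and cannot be told apart. Between Th1 and Th2 cells the added cytokines and antibodies, the reporter mouse and the sort also changed together and cannot be told apart. In bulk chromatin, a domain present in fewer of the cells and a weaker domain in all of them cannot be told apart either. Whether the 3 libraries of each group stem from different mice is not stated, so p-values here reflect variation among these libraries and possibly no more than technical variation.

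Each library came with its own list of broad peaks, and the value given for a gene is the percent of its annotated body, from start to end, that was covered by the merged peaks of that list. The value is a length share, so genes of different length can be compared, and it saturates at 0% and 100%. The lists held 38026 to 40455 peaks over 275.6 to 284.9 Mb (naive), 41504 to 46085 over 217.0 to 240.1 Mb (Th1) and 45894 to 51854 over 232.2 to 249.9 Mb (Th2). Naive lists thus covered more sequence in fewer, wider peaks than every Th1 and Th2 list, and read depth was not given. Mean coverage of 8 T-lineage genes lay between 81.9% and 100% in every group. The 4 B cell genes and 4 myeloid genes were at 0% in all groups, and of the 2 NK cell genes only Klrb1c had any coverage, 0.821% ± 1.42 (SD, n = 3) in Th1 cells. Th1 and Th2 cells carried their own markers: Ifng was at 100% in Th1, 2.77% ± 4.80 in Th2 and 0% in naive cells, and Il4 was at 100% in Th2, 23.0% ± 23.6 in Th1 and 0% in naive cells. Cd8a and Cd8b1, which define CD8 T cells, were both at 100% in the naive cells, where Cd4 was at 83.5% ± 1.33. Th1 cells had 0% and 9.01% ± 2.47 for these genes, Th2 cells 7.28% ± 7.42 and 23.3% ± 5.10. The part of these cell type differences in the values of the members was not tested.

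Most oxidative phosphorylation genes lay inside H3K79me2 domains in every cell type. At least 50% of the gene body was covered for 75 to 78 of the 96 members in the naive lists, 66 to 71 in the Th1 lists and 68 to 70 in the Th2 lists. As shares these were 79.8% ± 1.58, 71.9% ± 2.74 and 71.9% ± 1.05 (SD, n = 3), beside 33.0% ± 0.458, 26.7% ± 1.24 and 26.9% ± 0.493 of all protein-coding genes. High coverage was not particular to the members. The median naive mean was 87.3% in members, 78.6% in mitochondrial ribosome, 77.85% in proteasome and 92.7% in cytosolic ribosome genes. All 9 lists covered at least 50% of the same gene for 63 members. Added up, the bodies of the members came to 1177 kb, of which naive libraries covered 760.4 kb ± 10.1, Th1 libraries 628.0 kb ± 24.6 and Th2 libraries 642.9 kb ± 17.96. At the 2 ends of the scale stood 11 members that were covered from end to end in all 9 lists and 10 members with no coverage in any list. The fully covered ones were Atp5g3, Atp5h, Atp5k and Atp5l of ATP synthase, Cox6a1 and Cox8a of cytochrome c oxidase, Ndufa13, Ndufb7 and Ndufb11 of complex I, and Uqcr10 and the Rieske iron-sulfur protein gene Uqcrfs1 of complex III. These 21 members had 1 value in all lists and could not be tested, which left 75 members among 11600 genes tested.

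**Figure D1:**
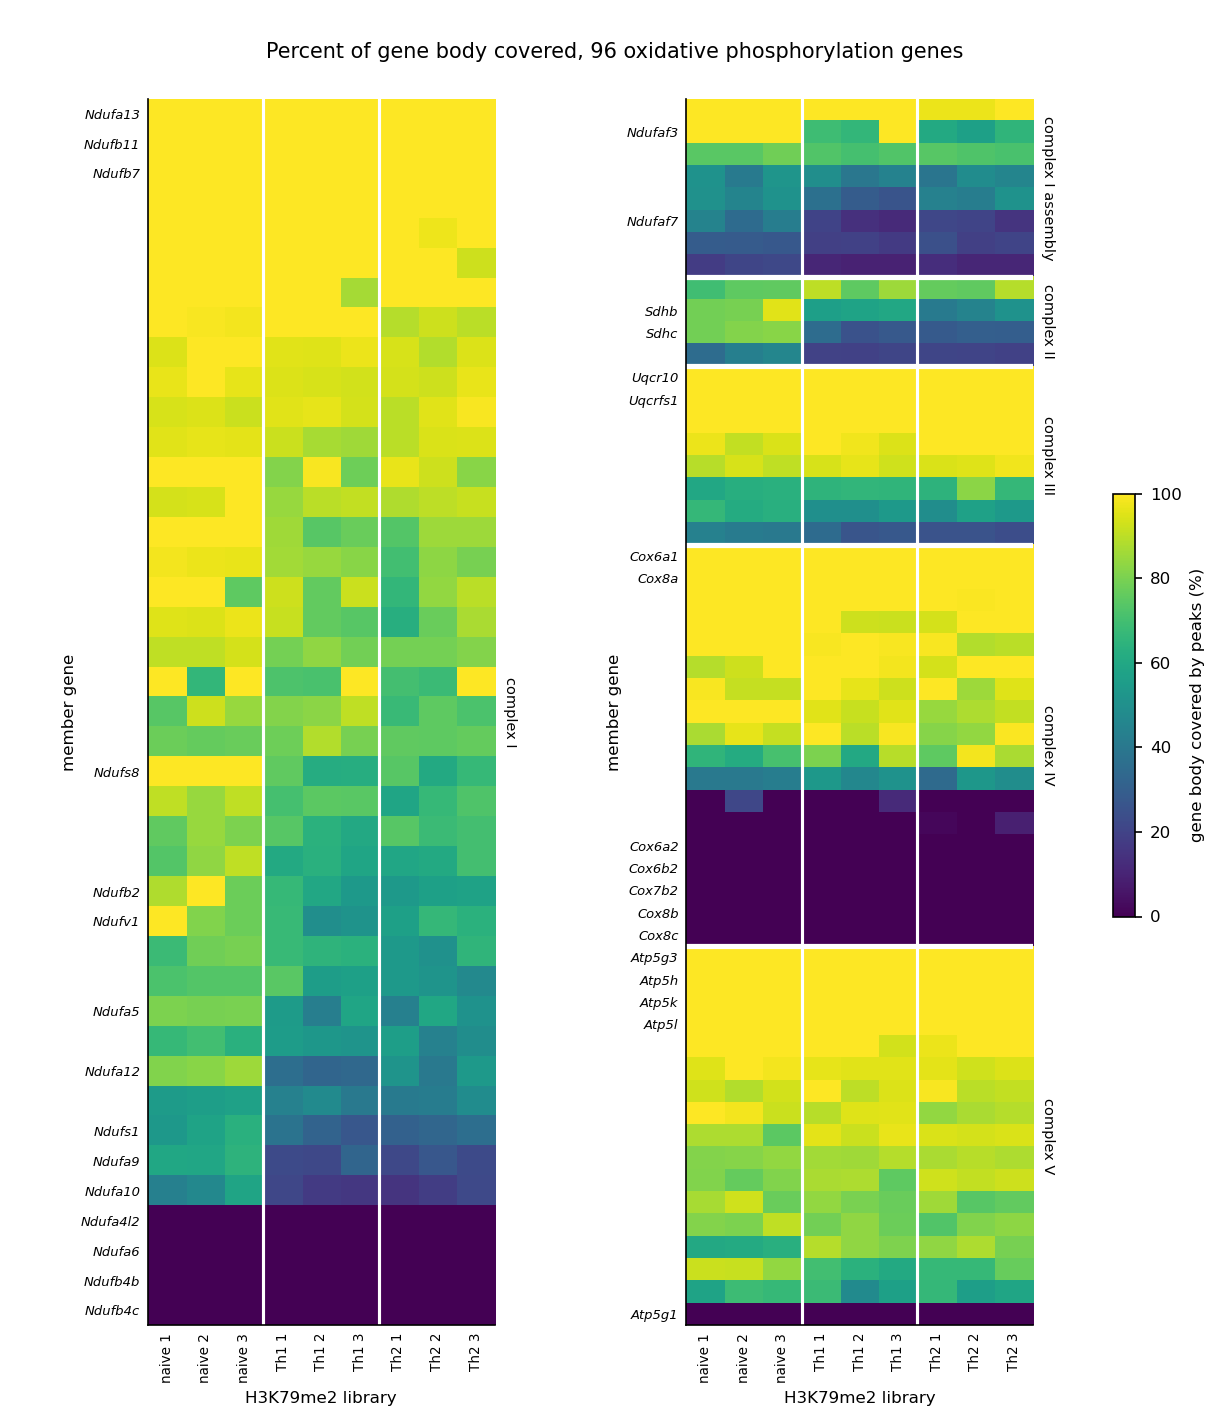
Percent of the gene body covered by peaks (colour, 0 to 100%) for the 96 members (rows, by complex and then by mean) in the 9 libraries (columns); names are given for members called in a comparison or with 1 value in all lists. Yellow rows are covered from end to end; the dark rows at the foot of complexes I, IV and V are the members at or close to 0%.

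Levels differed by complex. Complex III members had a median group mean of 92.7% in naive, 96% in Th1 and 97.9% in Th2 libraries, and complex V members 89.1%, 93.3% and 92.1%. Complex I members stood at 88.8%, 80.4% and 75.7%, and complex IV members, 5 of 18 of which were at 0% throughout, at 78.8%, 85.5% and 87.4%. The 4 complex II genes were long, with a median of 19.7 kb against 7.23 kb over all members, and their medians were 77.1%, 43.8% and 37.7%. Lowest in naive cells were the Ndufaf assembly factors, whose proteins help to build complex I without staying in it, at 48.5%, 37.6% and 45.1%.

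Several subunits of complexes I, IV and V exist as paired isoforms, and in most of the pairs 1 gene carried a domain while its partner was bare. Cox8a, the widely expressed isoform of subunit 8, was at 100% in all 9 lists, whereas Cox8b, its heart and muscle counterpart, and Cox8c, a testis form, were at 0% in all 9. Cox6a1, the liver-type isoform, was at 100% in every list and the muscle isoform Cox6a2 at 0% in every list. For subunit 6b the values were 91.0% to 99.1% in naive, 92.5% to 100% in Th1 and 85.2% to 99.9% in Th2 libraries for Cox6b1, against 0% in all lists for the testis isoform Cox6b2. The same split held for subunit 4, where Cox4i1 lay between 82.0% and 100% over the 9 lists. Cox4i2, known as a lung isoform that responds to low oxygen, had coverage in only 2 lists, 1.90% and 8.94% in the first and the third Th2 library.

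Subunit 7 followed the pattern in part. Cox7b was at 65.6%, 61.5% and 70.8% in the naive, 80.4%, 60.5% and 89.1% in the Th1 and 75.2%, 98.3% and 87.5% in the Th2 libraries, and its testis paralogue Cox7b2 was at 0% throughout. The Th2 libraries of Cox7b lay above the naive ones and the Th1 libraries overlapped them; the difference of 21.05 points between Th2 and naive cells (SE 8.201) did not pass the test described below, with a limma adjusted p of 0.058, and Cox7b was called higher in Th2 without the first Th2 library, with gaps of up to 1 kb between peaks closed and with libraries centred. Cox7a1, the muscle isoform, was at 21.1% in the second naive library, 11.7% in the third Th1 library and 0% in the other 7. Cox7a2 was covered over 34.8% to 53.5% of its body in the 9 lists and overlaps another protein-coding gene, so that its coverage cannot be assigned to it alone. Cox7a2l, whose product helps to join complexes III and IV into supercomplexes, was at 92.2% to 100%. Ndufa4 was at 84.4% to 100%, and its paralogue Ndufa4l2, a gene known to respond to low oxygen, was at 0% in every list although it overlaps Shmt2, which was covered over 47.0% to 98.1% of its body.

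The 3 genes for the membrane ring subunit c of ATP synthase encode the same mature protein, and they differed. Atp5g3 was at 100% in all 9 lists, Atp5g2 between 73.8% and 92.8%, and Atp5g1 at 0% in all. Between 7.71 and 7.92 kb separated Atp5g1 from the nearest peak, and its closest neighbour Ube2z, 7.43 kb away, was covered over 67.9% to 88.8%. Of the complex I members at 0%, Ndufa6 is a subunit found in all tissues and was singled out after its values were seen. Its nearest peak lay 12.2 to 12.3 kb away in every list, and its neighbours Smdt1 and Pheta2 were at 0% as well. The other 3 bare complex I members were Ndufa4l2 and the short genes Ndufb4b and Ndufb4c, of 0.471 and 0.485 kb. How well reads can be placed on these loci was not examined, so 0% means only that no peak was called there.

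Promoters of the members carried motifs of factors known to drive nuclear genes for mitochondria. In the RefSeq promoter table (GRCm38.p6, 250 bases before to 50 bases after the start, 1 promoter a gene), 78 of the 96 members had an entry. On either strand, the NRF1 motif GCGCATGCG was in 10 of the 78 (12.8%), beside 1.81% of 27025 genes of the table and 2.43% of its 17274 protein-coding genes. The ETS motif CCGGAAG, bound by GABPA among others, was in 18 (23.1%), beside 9.12% and 12%, and the YY1 motif AAGATGGCG in 7 (8.97%), beside 1.49% and 1.95%. The SP1 motif GGGCGGG was in 28 (35.9%), beside 25.8% and 34.4%. Median GC content was 58.5% in members, 52.7% in all promoters of the table and 56.3% in protein-coding ones. Of the 6 members with an entry that were at 0% in every list, none held the NRF1, ETS or YY1 letters and 3 held SP1; of 10 members called below with an entry, none held NRF1, 2 held ETS, 1 YY1 and 4 SP1.

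The 250 bases before the start are shown for Cox6a1 and Atp5g2, which hold the NRF1 motif, for Sdhb, a member whose domain was shorter in Th1 and Th2 cells, and for the pair Cox8a and Cox8b, covered throughout and bare throughout. Sequences run from 5′ to 3′ along the gene, and capitals mark matches to the 4 motifs that lie wholly before the start.
Cox6a1, chr5:115348959-115349208, minus strand: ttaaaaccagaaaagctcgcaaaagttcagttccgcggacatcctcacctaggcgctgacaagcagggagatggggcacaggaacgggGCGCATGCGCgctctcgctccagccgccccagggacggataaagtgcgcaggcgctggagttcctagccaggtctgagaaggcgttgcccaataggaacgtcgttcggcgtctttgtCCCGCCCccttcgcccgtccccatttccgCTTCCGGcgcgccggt
Atp5g2, chr15:102671048-102671297, minus strand: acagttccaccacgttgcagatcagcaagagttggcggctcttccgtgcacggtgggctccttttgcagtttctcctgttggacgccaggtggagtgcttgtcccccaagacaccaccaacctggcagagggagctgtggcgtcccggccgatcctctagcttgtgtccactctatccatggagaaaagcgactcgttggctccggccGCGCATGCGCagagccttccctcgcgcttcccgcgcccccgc
Sdhb, chr4:140961021-140961270, plus strand: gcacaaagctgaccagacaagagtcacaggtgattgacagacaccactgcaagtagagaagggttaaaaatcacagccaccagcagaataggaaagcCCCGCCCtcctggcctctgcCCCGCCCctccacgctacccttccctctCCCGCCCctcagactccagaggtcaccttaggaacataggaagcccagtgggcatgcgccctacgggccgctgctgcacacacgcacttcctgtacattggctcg
Cox8a, chr19:7217617-7217866, minus strand: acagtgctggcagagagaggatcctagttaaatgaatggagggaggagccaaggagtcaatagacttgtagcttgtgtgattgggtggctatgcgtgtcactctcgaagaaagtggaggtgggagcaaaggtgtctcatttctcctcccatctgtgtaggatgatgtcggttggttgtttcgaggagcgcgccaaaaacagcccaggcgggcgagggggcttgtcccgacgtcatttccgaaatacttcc
Cox8b, chr7:140900447-140900696, minus strand: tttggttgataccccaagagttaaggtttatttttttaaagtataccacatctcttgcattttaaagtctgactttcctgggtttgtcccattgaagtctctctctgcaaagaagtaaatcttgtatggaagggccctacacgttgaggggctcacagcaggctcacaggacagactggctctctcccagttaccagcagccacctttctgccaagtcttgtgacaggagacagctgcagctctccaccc
In Cox6a1 the capitals are an NRF1 pair of overlapping matches on both strands that begins 162 bases before the start, an SP1 match 45 bases before it and an ETS match 16 bases before it, the last 2 on the reverse strand. Atp5g2 has the same palindrome 42 bases before its start. Sdhb has 3 SP1 matches, 153, 133 and 105 bases before the start. Cox8a and Cox8b have no match in the stretch shown, and they differ in CpG dinucleotides, of which Cox8a has 11 and Cox8b has 1, against 26 in Cox6a1. Matches that touch or follow the start are not in capitals: an SP1 match in Atp5g2 and 1 of 2 ETS matches in Cox8a begin 5 bases before it, and the ETS match of Sdhb begins after it.

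Coverage of the members was highest just inside the gene. At 1 kb from the start, 90.6% ± 0.740 of the 78 members with a known strand were covered in naive, 91.0% ± 0 in Th1 and 89.7% ± 1.28 in Th2 libraries (SD, n = 3), beside 41.4%, 41.3% and 41.8% of 17274 protein-coding genes. At the start itself the members' shares were 84.6% ± 1.28, 69.7% ± 3.92 and 68.4% ± 5.34. At 5 kb they were 69.2%, 62.8% and 61.5%, and at 10 kb 45.7%, 34.6% and 32.1%, where all protein-coding genes stood at 31.6%, 26.3% and 26.7%. The groups thus lay close together at 1 kb and further apart at the start and from 5 kb on, in the members and in all genes. Every one of the naive libraries was above every Th1 and Th2 library for the members at 0 kb and at 10 kb. Over the first 2 kb of the gene, 61 of the 78 members were fully covered in all naive lists, 45 in all Th1 lists and 42 in all Th2 lists.

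**Figure D2:**
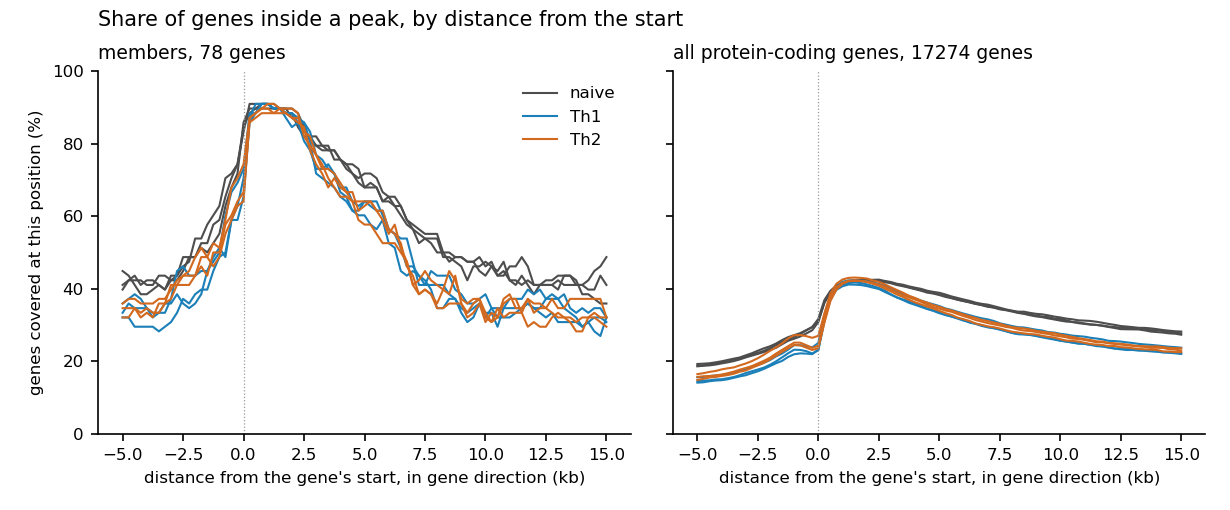
Share of genes inside a peak (%) against the distance from the gene's start in kb, 1 line per library, for the members with a known strand (left) and all protein-coding genes (right). The lines of the 3 groups meet near 1 kb and the naive lines lie above the others at 10 kb.

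The comparison of Th1 with naive cells asks how the mark over these genes differs after activation and Th1 polarisation. Percent covered was tested with limma, with Benjamini-Hochberg adjustment over all 11600 genes, and a gene was called where the adjusted p was under 0.05 and the group means were 25 or more percentage points apart. Of the 75 members tested 11 fell, which is 14.7%, and the background over all genes tested was 16.3%. No member rose by this rule (background 4.38%), and 3 were higher at an unadjusted p under 0.05. A call higher needs a rise of 25 points on a scale that ends at 100%. The median naive mean of the 96 members was 87.3%, so most members could not be called higher whatever their values. Mean naive coverage over all genes tested was 53.6%, so the absence of rises is not read as a result about the members. By the adjusted p alone 29 members were lower (38.7%, background 47.9%) and 3 higher (background 11.8%). The median difference was -5.14 points over the members and -5.54 over all genes tested, so that the members' share of lower calls and their median were near those of all genes.

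Th2 cells gave similar counts against the same naive libraries, which both comparisons share. Here 9 members fell, 12% against a background of 15.4%, and none rose (background 4.26%, 7 higher at an unadjusted p under 0.05). The ceiling on rises holds here too, also with lists cut to the same length. By the adjusted p alone 33 were lower (44.0%, background 47.4%) and 6 higher (background 12.1%). The median difference was -7.05 points over the members and -5.50 over all genes tested. Calls fell in complex I (8 of 34 tested in Th1, 6 in Th2), its assembly factors (1 of 8 in each) and complex II (2 of 4 in each). Complexes III, IV and V, with 6, 11 and 12 members tested, had no call in either comparison by limma; at an unadjusted p under 0.05, 4 of those 29 were lower and 3 higher in Th1, and 7 lower and 7 higher in Th2. With the libraries centred to 1 mean, which moved the median of all genes from -5.54 to 2.70 points (Th1) and from -5.50 to 2.20 (Th2), the members' median turned to 3.11 and 0.646, and the calls became 4 lower and 1 higher in Th1 (backgrounds 10.1% and 6.34%) and 6 lower and 2 higher in Th2 (backgrounds 9.64% and 6.37%). With each list cut to the same covered length the calls were 7 lower in Th1 and 8 in Th2 (backgrounds 9.57% and 10.1%), with none higher (backgrounds 7.58% and 7.02%). Over all genes the share of calls that were higher was 21.1% in Th1 and 21.7% in Th2, 44.2% and 40.9% with lists cut to the same length, and 38.5% and 39.8% with libraries centred. Of the 20 calls on members in the 2 comparisons, 13 held with lists cut to the same length, a step that lost Ndufa10 and Ndufa12 in both and Ndufaf7, Ndufs1 and Sdhb in Th1. Centring kept 10, and lost Ndufa5, Ndufa10 and Ndufb2 in both and Ndufaf7, Ndufs1, Ndufv1 and Sdhb in Th1.

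Complex II, which links the citrate cycle to the respiratory chain, held the largest single difference. Sdhc, a membrane anchor of the complex (chromosome 1, 171129157 to 171150640), was covered over 78.5%, 81.5% and 82.2% of its 21.5 kb in the naive libraries, 35.4%, 25.4% and 27.8% in Th1 and 28.5%, 30.5% and 30.01% in Th2. All 6 polarised libraries lay far below the naive ones, with 6.34 kb ± 1.13 (Th1) and 6.37 kb ± 0.224 (Th2) of the gene covered against 17.3 kb ± 0.416. The difference was -51.21 points in Th1 (SE 2.70, limma adjusted p = 2.9e-06) and -51.09 in Th2 (adjusted p = 3.3e-06), and both calls held in all 20 alternatives in which the gene could be tested. Sdhb, the iron-sulfur subunit (chromosome 4, 140961271 to 140979198), had 78.6%, 79.6% and 95.7% in naive, 56.4%, 57.9% and 59.8% in Th1 and 41.3%, 44.9% and 50.9% in Th2 libraries. The 3 groups did not overlap, and the third naive library stood apart from the others. The difference was -26.59 points in Th1 (SE 4.74, limma adjusted p = 0.0018), a call that was lost without that naive library, and -38.95 in Th2 (adjusted p = 0.00024).

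The other complex II genes were not called. Sdha, the flavoprotein that oxidises succinate (28.0 kb), was at 35.5%, 43.1% and 45.7% in naive, 19.8%, 19.5% and 21.1% in Th1 and 21.0%, 20.6% and 19.4% in Th2 libraries. Naive libraries were all higher, and the differences of -21.34 and -21.12 points passed the limma adjusted p (0.00018 and 0.0002) but not the minimum of 25. Sdhd, the second membrane anchor and the shortest at 7.51 kb, was at 69.5%, 75.2% and 75.5% in naive, 89.9%, 75.3% and 85.5% in Th1 and 76.5%, 75.4% and 88.8% in Th2 libraries. Groups overlapped for Sdhd, and differences of 10.17 and 6.83 points did not pass the limma test (adjusted p = 0.1 and 0.26).

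**Figure D3:**
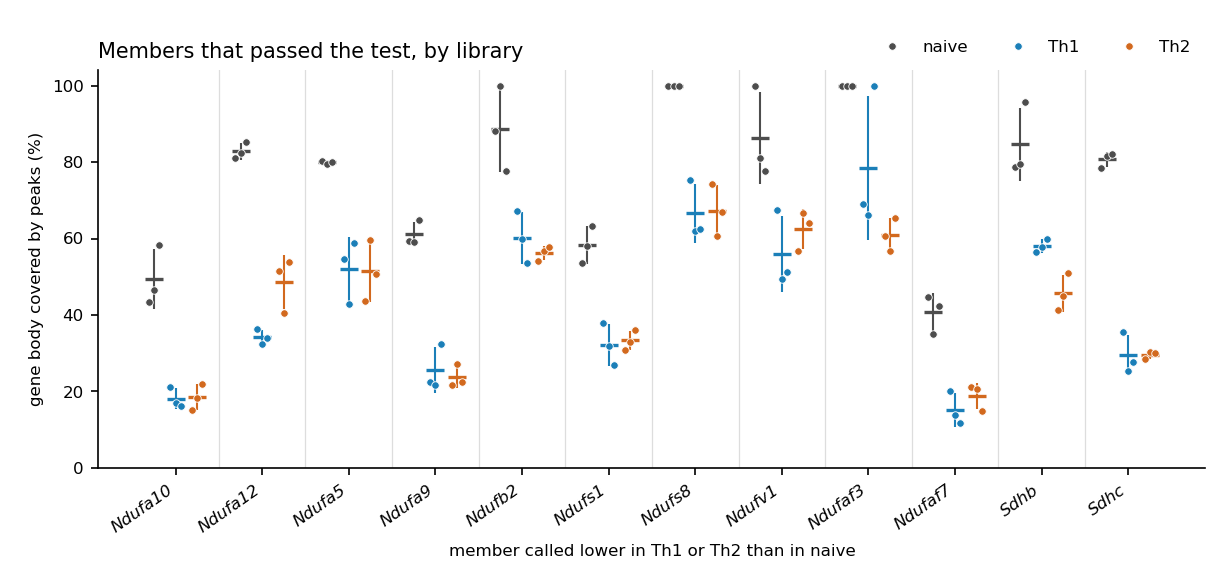
Percent of the gene body covered in each library (points) with group mean and SD (bars) for the 12 members called lower in Th1 or Th2 than in naive cells. Naive points lie above all Th1 and Th2 points of the same gene except for Ndufaf3, where 1 Th1 library is at 100%.

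In complex I the called genes encode parts of both its arms. Among accessory subunits, Ndufa12 (chromosome 10, 94199035 to 94221440) was at 80.9%, 82.3% and 85.2% in naive, 36.3%, 32.5% and 33.9% in Th1 and 51.6%, 40.4% and 53.8% in Th2 libraries. The 3 groups did not overlap, with Th1 lowest and Th2 between. Differences from naive were -48.59 points in Th1 (SE 3.48, limma adjusted p = 1.4e-05) and -34.21 in Th2 (adjusted p = 9.4e-05). Ndufa9 (chromosome 6, 126821863 to 126849144), a subunit near the ubiquinone site, had 59.4%, 59.2% and 64.8%, then 22.4%, 21.8% and 32.5%, then 21.7%, 27.2% and 22.5% in naive, Th1 and Th2 libraries. Its differences were -35.58 (SE 3.33, limma adjusted p = 5.8e-05) and -37.36 points (adjusted p = 4.8e-05). For Ndufa10 (chromosome 1, 92439486 to 92473825) the values were 43.4%, 46.6% and 58.2% in naive, 21.2%, 17.1% and 16.2% in Th1 and 15.2%, 18.2% and 21.9% in Th2 libraries. Every naive library was higher than all polarised ones; the differences were -31.27 points in Th1 (SE 3.89, limma adjusted p = 0.00027) and -30.95 in Th2 (adjusted p = 0.00029).

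Ndufa5 (chromosome 6, 24518662 to 24527690), another accessory subunit, was at 80.3%, 79.4% and 80.1% in naive, 54.7%, 42.8% and 58.8% in Th1 and 43.7%, 59.6% and 50.8% in Th2 libraries. Naive libraries lay close to each other and above all of the more widely spread polarised ones. Differences were -27.81 in Th1 (SE 5.02, limma adjusted p = 0.0019), lost without the second Th1 library, and -28.5 in Th2 (adjusted p = 0.0017), lost without the first Th2 library. Ndufb2 (chromosome 6, 39592565 to 39599843) had 88.1%, 100% and 77.7% in naive, 67.2%, 59.98% and 53.6% in Th1 and 54.2%, 56.8% and 57.7% in Th2 libraries. Its differences were -28.37 points in Th1 (SE 5.68, limma adjusted p = 0.0032), a call lost without the second naive library, and -32.41 in Th2 (adjusted p = 0.0017).

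The core subunits that carry the electrons were called as well. Ndufs8 (chromosome 19, 3908863 to 3912774), which holds iron-sulfur clusters, was covered from end to end in the 3 naive libraries, and over 75.4%, 61.9% and 62.4% in Th1 and 74.2%, 60.7% and 66.8% in Th2 libraries. The differences of -33.44 points in Th1 (SE 4.41, limma adjusted p = 0.00036) and -32.75 in Th2 (adjusted p = 0.00042) were no longer calls when 2 kb were added on each side of the gene. Ndufs1 (chromosome 1, 63143592 to 63176822), the largest subunit of complex I, had 53.5%, 58.0% and 63.3% in naive, 38.0%, 31.9% and 27.0% in Th1 and 31.0%, 33.0% and 36.1% in Th2 libraries. The groups did not overlap with naive; the Th1 difference of -26.0 (SE 3.51, limma adjusted p = 0.00041) was just past the minimum and was lost without the third naive or the third Th1 library, and the Th2 difference of -24.92 (adjusted p = 0.00053) was just short of it. Ndufv1 (chromosome 19, 4007499 to 4012755), which binds NADH through its flavin, was at 100%, 81.1% and 77.6% in naive, 67.4%, 49.4% and 51.2% in Th1 and 56.7%, 66.7% and 63.9% in Th2 libraries. Its difference of -30.22 points in Th1 (SE 7.05, limma adjusted p = 0.0069) was lost without the first naive library, the only one at 100%.

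Of the assembly factors, Ndufaf7, a methyltransferase (chromosome 17, 78937106 to 78948052), was at 44.8%, 34.9% and 42.4% in naive, 20.3%, 13.8% and 11.7% in Th1 and 21.1%, 20.6% and 14.97% in Th2 libraries. The Th1 difference was -25.44 points (SE 3.32), and its call was lost without the first or the third naive library and without the second or the third Th1 library. Ndufaf3 (chromosome 9, 108565587 to 108567436), a short gene of 1.85 kb, was at 100% in the naive libraries, 68.9%, 66.1% and 100% in Th1 and 60.8%, 56.7% and 65.4% in Th2. The lowest Th1 library lay just above the highest Th2 library, and the highest was at the naive value. Its Th2 difference was -39.06 points (SE 8.23, limma adjusted p = 0.0043), and the call was lost when 2 kb were added on each side.

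Each gene body was divided into 3 equal segments for the 61 tested members with a known strand. Of the 10 called members among them, 8 had their largest difference from naive in the middle or distal segment, in Th1 as in Th2. Together these segments make up most of each gene body. The segment next to the start had mean coverage of 95.04% in naive, 90.03% in Th1 and 89.2% in Th2 libraries. In the middle segment the means were 87.6%, 76.3% and 77.3%, and in the distal one 62.7%, 52.5% and 50.5%. Group means were lower than naive by 25 points or more for 7 members in Th1 and 6 in Th2 in the first segment, 15 and 12 in the middle one and 13 and 17 in the distal one. Segments were not measured over all genes tested, so this layout cannot be called particular to the members. Sdhb kept 100% ± 0, 100% ± 0 and 98.5% ± 1.48 in its first segment, while its distal segment had 56.8% ± 26.2 (naive), 4.65% ± 8.05 (Th1) and 4.93% ± 5.37 (Th2). Ndufb2 showed the same layout, with 100% in the first segment of every group and 65.8% ± 33.5, 0.481% ± 0.833 and 0% in the distal one. In the long gene Ndufa10 the middle segment differed most, at 62.5% ± 8.47 in naive and 0% in both other groups, and its first segment went from 76.2% to 52.7% in Th1 and 46.6% in Th2. Ndufa9 also differed most in the middle segment, at 67.2% ± 12.8, 9.29% ± 4.78 and 4.16% ± 7.21, with 100%, 67.4% and 67.2% in the first segment and 16.2%, 0% and 0% in the distal one.

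Ndufaf3 had the opposite layout. Its distal segment was at 100% in all 3 groups and its first segment at 100% in naive, 35.6% ± 55.9 in Th1 and 0% in Th2 libraries. Ndufaf7 was also lower next to the start, at 94.4% ± 9.68, 45.8% ± 13.3 and 56.7% ± 10.3. Measured over the first 2 kb alone, 35 members varied and could be tested; 1 fell in Th1 (Cox5a; background 11.1% of 6304 genes) and 2 in Th2 (Cox5a and Ndufaf3; background 9.84%). Of the 20 calls on whole genes, 5 could not be tested over this window: Sdhc and Ndufs1 have no strand, and Ndufb2 was at 100% in every list. The window holds all of the short Ndufaf3, whose Th2 call is therefore the same measurement, and the other 14 calls were not made. Cox5a over its whole body was at 100% in naive, 94.2% ± 2.37 in Th1 and 87.7% ± 2.99 in Th2 libraries. Its window begins where the annotated body does, at 57517328 on chromosome 9. The promoter listed for Cox5a lies at 57520982 to 57521281, so the window ends upstream of it and does not hold that start. The same is true of Cox7a2 and Atp5d.

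Called members were found among short and long genes, and the differences were more negative in longer members. Spearman's rho between length and difference over the 75 members was -0.339 for Th1 and -0.301 for Th2, given as a description since the genes share the same libraries. Of 13 members over 20 kb, 5 were called lower in Th1 (38.5%; 15.8% of 6627 genes of that length) and 4 in Th2 (30.8%; 15.2%). Of 15 under 5 kb, 1 and 2 were called (6.67% and 13.3%; 13.2% and 11.5% of all such genes). Ndufs4, an accessory subunit of 100.3 kb named after its values were seen, was not called and had 95.8% ± 0.264 (naive), 88.2% ± 3.28 (Th1) and 92.9% ± 2.75 (Th2).

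**Figure D4:**
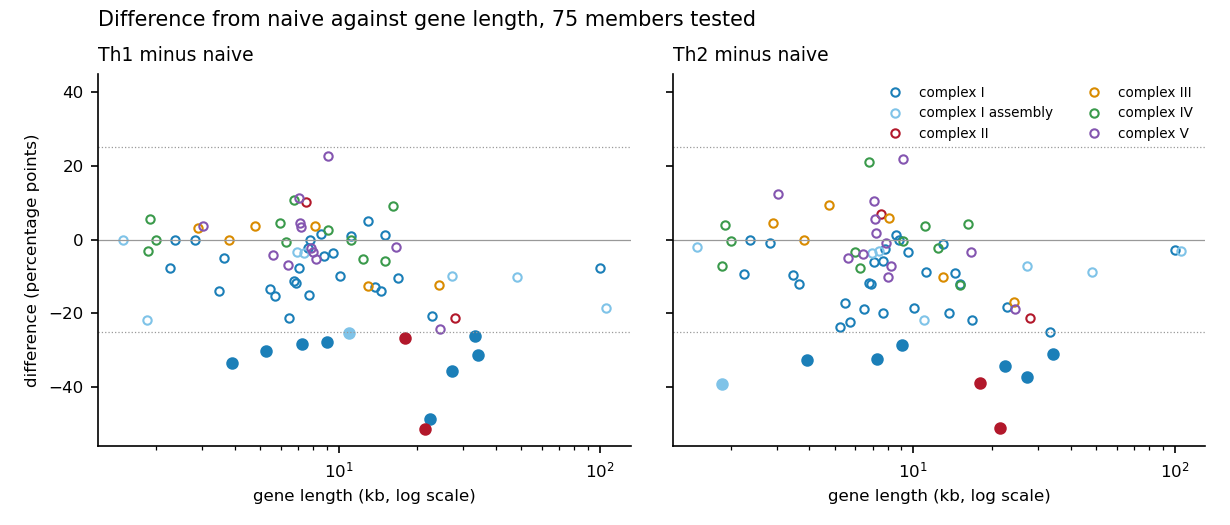
Difference in percent covered from naive cells (percentage points) against gene length (kb, log scale) for the 75 members tested, in Th1 (left) and Th2 (right). Filled points are called members, dotted lines mark the minimum of 25 points; the most negative point in both panels is Sdhc.

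A few members were higher in the polarised cells without reaching the minimum difference. Atp5a1, the alpha subunit of the catalytic head of ATP synthase, named after its values were seen, was at 60.5%, 61.1% and 63.1% in naive, 89.0%, 83.2% and 80.8% in Th1 and 83.2%, 87.7% and 79.6% in Th2 libraries. The groups did not overlap with naive, and the differences of 22.78 and 21.94 points passed the limma adjusted p (0.0002 and 0.00025) and became calls with libraries centred. Atp5a1 overlaps another protein-coding gene, so its coverage cannot be assigned to it alone.

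Th2 minus Th1 gave no call among the 75 members in either direction by limma, against backgrounds of 2.08% higher and 1.56% lower; 4 were higher and 8 lower at an unadjusted p under 0.05. By the adjusted p alone 2 were higher (background 8.62%) and 2 lower (background 6.58%). Ndufaf2, an assembly factor of 106.1 kb, was higher in Th2, at 43.9%, 42.6% and 51.1% against 36.7%, 29.2% and 25.8% in Th1 libraries (difference 15.28, SE 3.58, limma adjusted p = 0.027). Ndufa12, given above, was higher in Th2 by 14.38 points (SE 3.48, limma adjusted p = 0.03), a direction that turned with lists cut to the same covered length. Ndufv3, a small accessory subunit, was lower in Th2, at 89.0%, 92.2% and 89.7% against 100%, 99.8% and 100% in Th1 (difference -9.63, SE 0.980, limma adjusted p = 0.00062). Cox5a was lower by 6.52 points (SE 1.72, limma adjusted p = 0.042). Among the differences that did not pass were Ndufaf3 at -17.39 points, Ndufab1, the mitochondrial acyl carrier protein, at -13.43, Sdhb at -12.36, Atp5e at 8.67 and Atp5j at -6.68, with limma adjusted p from 0.11 to 0.23.

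Libraries of a group differed most for 3 members. Ndufa2 was at 100%, 66.3% and 100% in the naive libraries (88.8% ± 19.5), Ndufaf3 had an SD of 18.8 in Th1, and Cox7b an SD of 14.7 in Th1. Over the tested members the median SD within a group was 2.46 points in naive, 3.38 in Th1 and 3.70 in Th2 libraries.

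Other values of the peak lists describe how the members sat in their domains. Each list had a peak on 84 or 85 members. The merged domain on a member was at the median 12.5 kb ± 0.387 (naive), 8.93 kb ± 0.494 (Th1) and 8.66 kb ± 0.133 (Th2) wide (SD, n = 3), with the naive lists above all others. A domain reaching another gene as well held 44 to 46 members in naive, 38 to 43 in Th1 and 38 to 42 in Th2 lists, so part of the members share their domain with a neighbour. Ranked by the authors' fold enrichment within its own list, the strongest peak on a member was at a median percentile of 90.3 to 90.7 in the naive, 92.4 to 92.7 in the Th1 and 93.1 to 94.2 in the Th2 lists. The lists differ in length, so these ranks are not compared between groups. Cox5a ranked highest among the members named here in Th2 lists, at a mean percentile of 99.2.

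Genes of related pathways were read from 4 lists by the same test, for which the backgrounds given above apply: 16.3% lower and 4.38% higher in Th1, 15.4% and 4.26% in Th2. Of 36 tested assembly factors with other names, 9 fell and 1 rose in Th1 (25% and 2.78%), and 6 fell and 1 rose in Th2 (16.7% and 2.78%). Taco1, which activates translation of a mitochondrial cytochrome c oxidase subunit, was at 100% in the 3 naive libraries, 48.4%, 42.6% and 43.9% in Th1 and 50.6%, 45.6% and 45.3% in Th2. Lyrm7, which hands the Rieske protein to complex III, had 78.6%, 66.2% and 83.1% in naive, 15.3%, 14.3% and 14.8% in Th1 and 23.4%, 23.9% and 36.2% in Th2 libraries. Both were far below naive in all 6 polarised libraries, with differences of -55.03 and -61.15 points in Th1 and -52.8 and -48.11 in Th2. Both calls of Lyrm7 were lost with lists cut to the same covered length. Sdhaf4, an assembly factor of complex II, had group means of 68.8% ± 15.6, 16.6% ± 11.6 and 15.4% ± 10.9, and its calls were lost likewise. Coa7 stood at 84.2% ± 3.07 in naive and 44.2% ± 6.65 in Th1, and Coa6 at 96.96% ± 5.27 in naive and 50.9% ± 5.55 in Th2 libraries. The gene that rose in both, Sco1, which delivers copper to cytochrome c oxidase, was at 48.8%, 44.5% and 34.4% in naive, 85.8%, 85.7% and 85.5% in Th1 and 83.0%, 79.5% and 88.9% in Th2 libraries. Coa6 and Sco1 overlap other protein-coding genes.

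Of 20 tested genes of the citrate cycle and pyruvate entry, 6 fell and 1 rose in Th1 (30% and 5%; background 16.3% and 4.38%), and 2 fell and 1 rose in Th2 (10% and 5%; background 15.4% and 4.26%). Idh2, the NADP-dependent isocitrate dehydrogenase of mitochondria, was at 100% in all naive libraries, 55.6%, 48.1% and 51.2% in Th1 and 56.1%, 61.4% and 64.6% in Th2. Pdhb, a subunit of pyruvate dehydrogenase, had means of 79.8% ± 1.22, 34.6% ± 4.62 and 44.3% ± 13.8. Idh3b, a subunit of the NAD-dependent isocitrate dehydrogenase, moved the other way, from 34.6%, 33.1% and 48.6% in naive to 100%, 100% and 82.0% in Th1 and 100% in all Th2 libraries. It overlaps another protein-coding gene at its end.

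Electron carriers and other inner membrane partners gave 1 call lower among 11 tested in each comparison with naive cells (9.09%; background 16.3% in Th1 and 15.4% in Th2). It was Dhodh, which feeds electrons from pyrimidine synthesis to ubiquinone, at 57.0% ± 12.8 in naive, 20.7% ± 4.55 in Th1 and 21.3% ± 0.551 in Th2 libraries. Its Th2 call was lost with lists cut to the same covered length. Among 17 tested genes of mitochondrial biogenesis and mitochondrial DNA expression, 4 fell in Th1 and 3 in Th2 (23.5% and 17.6%, against the same backgrounds); none rose by limma, also at an unadjusted p under 0.05. Polrmt, the mitochondrial RNA polymerase, was at 87.0%, 91.2% and 88.1% in naive, 27.4%, 26.2% and 20.5% in Th1 and 37.4%, 46.8% and 31.2% in Th2 libraries. Polg, the mitochondrial DNA polymerase, had means of 74.8% ± 7.91, 32.8% ± 8.50 and 32.9% ± 7.11 and overlaps another protein-coding gene. In the comparison of Th2 with Th1 cells none of the 4 lists gave a call by limma; at an unadjusted p under 0.05, 14 of their 84 genes were higher and 7 lower in Th2.

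Other gene families of similar kind were read beside the members. Mitochondrial ribosome genes (Mrpl and Mrps, 71 tested) had 10 lower and 1 higher in Th1 and 11 lower and 2 higher in Th2. Their lower shares of 14.1% and 15.5% were near the backgrounds of 16.3% and 15.4%. Proteasome genes (34 tested) had 3 lower (8.82%) and 1 higher in Th1 and 2 lower (5.88%) and 2 higher in Th2. Cytosolic ribosome genes (Rpl and Rps, 57 tested) had 1 lower (1.75%) and 9 higher (15.8%) in Th1, and none lower and 8 higher (14%) in Th2, beside backgrounds of 4.38% and 4.26% higher. Their median differences were 7.96 and 8.47 points, where those of the members were -5.14 and -7.05 and turned to 3.11 and 0.646 with libraries centred. The difference between the families was not tested.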

How the data were processed

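Members and gene lists were chosen with earlier results of these data known. The build mm10 and the tools MACS2, Bowtie2, SAMtools and Picard are named, per the submitters' processing notes; versions, settings and the part of the 9 input libraries in peak calling are not given in the sources used here. The authors deposited 1 broad peak list per H3K79me2 library, called separately in each library, with start, end, a display score, the −log10 of its p and of its q, and a fold enrichment over background (a ratio). These belong to a peak within its own list, and were used only to rank or filter it there. Read depth is unknown, so no counting interval is given; deeper libraries can give lists that cover more sequence, and their part in the results was not tested.

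Peaks were merged per list, and the percent of each annotated gene body covered was computed on chromosomes 1 to 19 and X. The RefSeq gene table has no strand, so strand came from the promoter table, which holds 78 of the 96 members. Of the members, 18 overlap another protein-coding gene, and 10 have a pseudogene named after them. Genes with 1 value in all 9 lists were left out. The 9 libraries were fitted together with limma 3.58.1 (R 4.3.3; lmFit, eBayes with a variance trend; 6 residual degrees of freedom; Benjamini-Hochberg adjustment over 11600 genes). On simulated data for Th1 against naive with 11600 genes, 85 of 100 genes lowered by 30 points and 98 of 100 lowered by 50 were called, with 1 call among 11200 unmoved genes. The simulated libraries held no shift in coverage common to a whole group, so these rates do not cover calls that such a shift can give. Named with values were all called members, the 10 largest differences a comparison among groups that do not overlap, the Sdh genes, isoform pairs, the 3 largest SDs and up to 10 called pathway genes a comparison. The values of 1 member that the rule names are not reported here. Matched covered length means that the peaks of lowest −log10 p were dropped from each list until all lists covered the same length; centring means that each library was shifted to 1 mean over the genes tested.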

Additional observations from a re-analysis of the deposited data

Results flagged for a closer look

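Ndufa8, an accessory subunit of complex I, was flagged because its Th1 and Th2 libraries lay on opposite sides of the naive ones. The 3 Th1 libraries, at 78.0%, 88.6% and 79.4% of the gene body, were all above the naive libraries at 77.5%, 76.3% and 77.03%, and the 3 Th2 libraries, at 75.7%, 75.2% and 76.2%, were all below them. Th2 minus Th1 was -6.308 points (SE 2.59), which did not pass the limma test over all genes (adjusted p = 0.17). The cause was not tested.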

How the results depend on the processing

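The 20 member calls were recomputed under the alternatives planned for the peak filter, the covered length, centring, the gene filter, the fit, the window, gaps, overlapping genes and single libraries. Without the gene filter, without the variance trend, with only the 6 libraries compared and without overlapping genes all 20 held. With peaks of −log10 q of at least 5 only, 14 held (Ndufa10 and Ndufa12 lost in both, Ndufaf7 and Sdhb in Th1). With 2 kb added on each side 14 held (Ndufs8 lost in both, Ndufaf7, Ndufs1 and Ndufv1 in Th1, Ndufaf3 in Th2), and with gaps of up to 1 kb closed 17 (Ndufs1 and Ndufs8 lost in Th1; Ndufaf3 in Th2 then had 1 value in all lists and was not tested). Members called lower in Th1 (11) were 7 with matched covered length, 4 with libraries centred, 1 over the first 2 kb and 29 by the adjusted p alone. Members called higher in Th1 (0) were 1 with libraries centred and 3 by the adjusted p alone. Members called lower in Th2 (9) were 2 over the first 2 kb and 33 by the adjusted p alone. Those called higher in Th2 (0) were 2 with libraries centred, 1 with gaps of up to 1 kb closed and 6 by the adjusted p alone, and ranged from 0 to 1 when single libraries were left out. Th2 against Th1 gave 2 higher and 2 lower by the adjusted p alone. Over the first 2 kb only 35 members varied; the cause of the other shifts was not tested. Leaving out a single library kept 17 to 20 of the calls.

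Of 1268 values of named genes under an alternative, 1167 kept direction and side of the threshold, 74 lost a call, 17 gained one and 10 turned. With 2 kb added on each side, Cox7b in Th1 against naive turned to -2.821 points and Atp5e in Th2 against Th1 to -1.105. Over the first 2 kb, Lyrm7 turned to 2.417 (Th1) and 1.217 (Th2) and Ndufa8 to -1.833 (Th1) against naive, and Atp5e to -0.5333, Ndufa8 to 1.017 and Ndufv3 to 0.3667 in Th2 against Th1. Ndufa12 in Th2 against Th1 turned to -6.406 with matched covered length, and Ndufa8 in Th2 against naive to 6.438 with libraries centred. The cause of these turns was not tested.

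With the replicate number as a block, the counts stayed at 11 lower in Th1 and 9 in Th2. The correlations of same-numbered libraries' deviations ran from -0.0745 to 0.0015 over 9 pairs, and those of other pairs from -0.0262 to 0.0697 over 18. The labels do not say whether a shared number marks a shared mouse or day. With no pair known to share one, these correlations cannot decide it.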
